A study of Caenorhabditis elegans with 4 samples.

Results

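The genes described here build the machinery that copies DNA and supplies its building blocks. They are the 6 subunits of the MCM helicase (mcm-2, mcm-3, mcm-4, mcm-5, mcm-6 and mcm-7), the sliding clamp gene pcn-1, the licensing gene cdc-6, and the large and small subunit genes of ribonucleotide reductase, rnr-1 and rnr-2. They were chosen by their symbols as 10 of the 46926 features in the count matrices. All 10 passed the expression minimum in germline-like nuclei in each comparison with ctrl.

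As background, CDC-6 acts with the origin recognition complex and CDT-1 to load the ring of MCM subunits onto origins before S phase, and the ring then unwinds DNA ahead of the polymerases. PCNA, the product of pcn-1, holds the polymerases on the template, and ribonucleotide reductase turns ribonucleotides into the deoxyribonucleotides that they use. In an adult hermaphrodite the dividing cells lie in the germline and in the embryos it carries, and growing oocytes store transcripts and proteins for the first divisions of the embryo.

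The samples were nuclei of whole Caenorhabditis elegans at day 1 of adulthood, sorted by Hoechst stain and particle size and profiled with the 10x Genomics 3′ assay, in 1 library of pooled worms per condition. The ctrl library came from wild type (N2) and the ent-1KO and ent-2KO libraries from CRISPR deletion strains of the nucleoside transporter genes ent-1 (allele rax74) and ent-2 (allele rax75), all fed HT115 bacteria with the empty L4440 vector. The ent-1KO;ent-2KD library came from ent-1KO worms fed HT115 bacteria that express ent-2 RNAi, so its second gene was knocked down and not deleted, and its diet differed from that of the other libraries by the RNAi insert. With 1 library per condition no difference between conditions could be tested, and every interval below is a 95% interval that covers counting error only.

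The libraries held 11666 to 14935 barcodes, of which 46662 of 52147 remained after putative doublets were removed, with median depths of 1392 to 1834.5 UMIs per nucleus. Each library shared 137 to 153 barcodes with the others, 1.02% to 1.25% of its own. Over all kept nuclei ent-1 was at 139.97 CPM (UMIs of the gene per 1000000 UMIs of the same nuclei) in ctrl, 142.3 in ent-2KO, 16.9 in ent-1KO and 14.5 in ent-1KO;ent-2KD, and ent-2 was at 26.4, 9.46, 24.5 and 16.8 CPM respectively. Nuclei were clustered without the 10 genes and without the other replication genes, and clusters were named from marker lists, so the names below end in "-like". The germline-like clusters had 13 to 24 of 24 germline markers raised. Germline-like nuclei numbered 6056 in ctrl, 7405 in ent-1KO, 6194 in ent-2KO and 3379 in ent-1KO;ent-2KD, which were 57.3%, 56.3%, 55.4% and 28.8% of each library. Those of the ent-1KO;ent-2KD library stood apart in their germline markers, of which 10 of 24 were lower than in ctrl by a log2 ratio of at least 0.5 and 3 were higher by as much. In the same comparison 18.7% of the 6182 genes past the expression minimum were lower and 20.0% higher.

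The 10 genes lie on 5 chromosomes of the WBcel235 build. The MCM genes are mcm-2 on chromosome II (12001509 to 12006625, minus strand), mcm-3 on V (15056719 to 15059599, minus), mcm-4 on I (2318291 to 2321817, minus), mcm-5 on III (4288264 to 4291266, minus), mcm-6 on III (9794367 to 9798644, plus) and mcm-7 on V (4347166 to 4349768, plus). The clamp gene pcn-1 lies on IV (4047937 to 4049448, minus), cdc-6 on I (4268070 to 4270287, minus), rnr-1 on III (9225339 to 9228798, minus) and rnr-2 on III (4093308 to 4094921, minus). Protein-coding genes on the other strand overlap mcm-2, mcm-3, mcm-4, mcm-6, mcm-7 and rnr-2. Of these ekl-7, which overlaps mcm-4, was the one with many UMIs in germline-like nuclei, at 136 CPM in ctrl and 86.6 in ent-1KO;ent-2KD, a log2 ratio of -0.65 (-0.79 to -0.52). The direction of ekl-7 was thus opposite to that of mcm-4, given next. T23G5.7, which overlaps rnr-1 on the same strand, had 0 UMIs in germline-like nuclei of every library.

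In germline-like nuclei the 10 genes together took 2096 CPM in ctrl, 2188 in ent-1KO, 2252 in ent-2KO and 2568 in ent-1KO;ent-2KD. The 2 genes that differed most between libraries were mcm-4 and pcn-1. The helicase gene mcm-4 was at 155 CPM in ctrl (147 to 162), 167 in ent-1KO (161 to 173), 176 in ent-2KO (169 to 184) and 274 in ent-1KO;ent-2KD (262 to 286). The clamp gene pcn-1 was at 288 CPM in ctrl (278 to 298), 309 in ent-1KO (300.5 to 317), 295 in ent-2KO (285 to 304) and 496 in ent-1KO;ent-2KD (480.1 to 512). For both genes ctrl and the single mutants lay close together and the ent-1KO;ent-2KD library alone was high.

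The other MCM genes, whose products form one ring with that of mcm-4, did not share its size of difference. The level of mcm-7 was 275 CPM in ctrl, 292 in ent-1KO, 292 in ent-2KO and 364 in ent-1KO;ent-2KD, in the same direction as mcm-4. The level of mcm-2 was 264 CPM in ctrl, 277 in ent-1KO, 293 in ent-2KO and 241 in ent-1KO;ent-2KD, so that the ent-1KO;ent-2KD library was the lowest for this gene. For mcm-3 the libraries gave 295, 317, 318 and 316 CPM in the same order, for mcm-5 167, 164, 191 and 179.5 CPM, and for mcm-6 233, 231, 245 and 250.5 CPM. In none of these last 3 genes did ent-1KO;ent-2KD stand apart from all other libraries. For mcm-3 ctrl was the lowest. The log2 ratios to it were 0.10 (0.04 to 0.17) in ent-1KO, 0.11 (0.04 to 0.18) in ent-2KO and 0.10 (0.02 to 0.18) in ent-1KO;ent-2KD. For mcm-5 ent-2KO was the highest, at 0.19 (0.10 to 0.28) to ctrl.

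The licensing gene cdc-6 had the flattest levels, with 130.0 CPM in ctrl, 129 in ent-1KO, 126 in ent-2KO and 123 in ent-1KO;ent-2KD, and all 4 intervals overlapped. This depended on the weight of nuclei. With each nucleus thinned at random to 500 UMIs, the log2 ratio of cdc-6 in ent-1KO;ent-2KD to ctrl was -0.34. Of the reductase pair, the large subunit gene rnr-1 was at 152, 156, 165 and 149.9 CPM, with ent-2KO the highest. The small subunit gene rnr-2 was at 137, 146, 151 and 175 CPM, with ent-1KO;ent-2KD the highest and its interval (165 to 184) above those of the other libraries. Counts are from the 3′ ends of transcripts and were not divided by length, so levels are compared here between libraries and nuclei and not between genes.

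**Figure D1:**
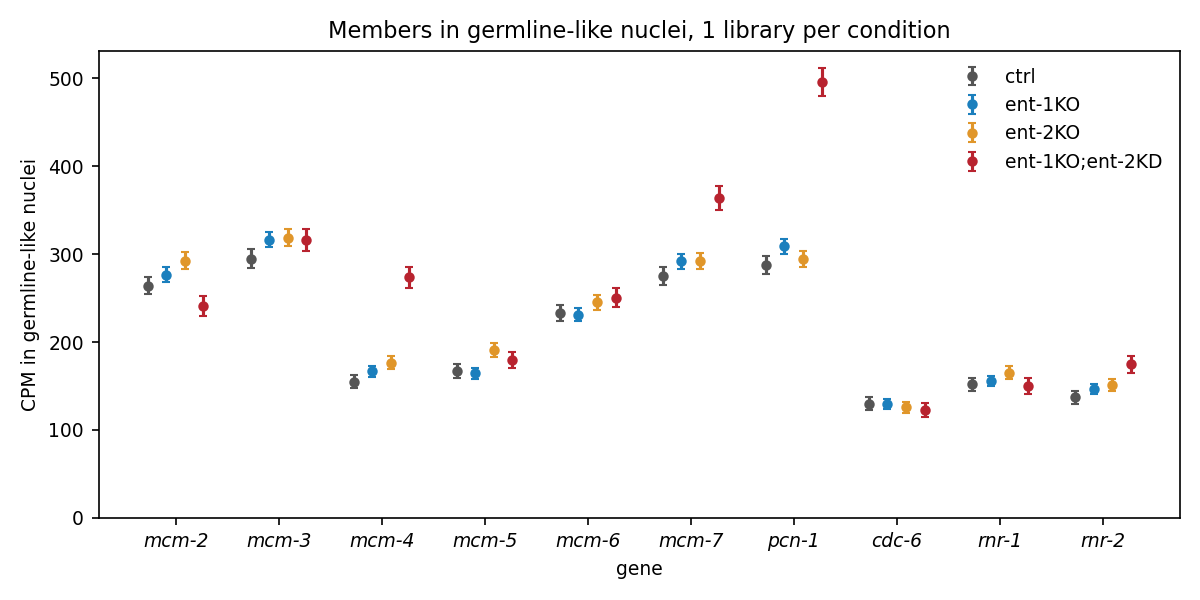
The plot shows the level of each gene in germline-like nuclei, in CPM, for the 4 libraries (1 point per library, bars are exact Poisson 95% intervals that cover counting error only). The points of mcm-4 and pcn-1 from ent-1KO;ent-2KD, at 274 and 496 CPM, stand above the other libraries, while those of cdc-6 lie between 123 and 130.0 CPM.

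As log2 ratios of ent-1KO;ent-2KD to ctrl in germline-like nuclei, mcm-4 was at 0.82 (0.73 to 0.92), pcn-1 at 0.78 (0.72 to 0.85), mcm-7 at 0.40 (0.33 to 0.48) and rnr-2 at 0.35 (0.24 to 0.46). The ratios of mcm-3, mcm-5 and mcm-6 were each 0.10, that of rnr-1 -0.02 (-0.13 to 0.09), that of cdc-6 -0.08 (-0.20 to 0.04) and that of mcm-2 -0.13 (-0.22 to -0.05). By the fold limit of the study, a log2 ratio of 0.5 in either direction, 2 of the 10 genes were higher and 0 were lower. In the same comparison 20.0% of the 6182 genes past the expression minimum were higher by that limit and 18.7% lower, so the share of the 10 genes that was higher did not exceed that of all genes. The median of the 10 genes was 0.10, against 0.00 over all genes, and mcm-4 and pcn-1 stood at percentiles 89.74 and 89.05 of all genes. Summed over the 10 genes the ratio was 0.29 (0.26 to 0.32). The size of this sum depended on how nuclei were weighted and named: it was 0.07 (0.01 to 0.13) with each nucleus thinned to 500 UMIs, and 0.72 (0.68 to 0.77) without integration of the libraries, when 460 in place of 3379 nuclei of ent-1KO;ent-2KD were named germline-like and mcm-2 was at 0.42 (0.28 to 0.55). The count of genes past the limit depended on these settings too. Without integration 7 of 10 were higher, beside 22.95% of all genes, with mcm-3 at 0.72, mcm-5 at 0.54, mcm-6 at 0.52, mcm-7 at 0.89 and rnr-2 at 1.10 added to mcm-4 and pcn-1. With free RNA subtracted 4 of 10 were higher, beside 19.7% of all genes, with mcm-7 at 0.58 and rnr-2 at 0.56 added. After thinning 1 of 10 was higher, pcn-1 at 0.55 (0.40 to 0.69), beside 21.03% of all genes, and mcm-4 was just under the limit at 0.49 (0.28 to 0.69). Over the 13 alternatives run mcm-4 lay between 0.49 and 1.08 and pcn-1 between 0.55 and 1.02. Among these, dropping the expression minimum cannot change the ratio of a single gene, and another alternative takes ent-1KO in place of ctrl as the reference. The ent-1KO library shares the ent-1 deletion with ent-1KO;ent-2KD, but it differs from it by library and worms as well as by the RNAi treatment. With ent-1KO in place of ctrl as the reference, mcm-4 was at 0.71 (0.63 to 0.79), pcn-1 at 0.68 (0.62 to 0.74) and the sum at 0.23 (0.21 to 0.26). In that comparison 19.7% of all genes were higher and 19.6% lower. In the same germline-like nuclei the summed level of 28 intestine markers was 7146 CPM in ctrl, 8215 in ent-1KO, 5030 in ent-2KO and 12101 in ent-1KO;ent-2KD, and that of 20 body wall muscle markers was 1070, 899, 886 and 1589 CPM, so RNA of other tissues was highest in the library in which mcm-4 and pcn-1 were highest. With free RNA subtracted the ratio of mcm-4 was 0.99, that of pcn-1 0.96 and that of the sum 0.46. The profile subtracted was that of all kept nuclei of the library, germline-like nuclei included. Those nuclei gave 56.7% of the UMIs in ctrl and 28.2% in ent-1KO;ent-2KD, so more germline RNA was removed from ctrl by construction. These ratios therefore cannot show what part RNA of other tissues had, which was not tested.

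The single mutants were much nearer to ctrl. In ent-1KO the 10 genes lay between -0.02 for mcm-5 and 0.11 for mcm-4, with a sum at 0.06 (0.04 to 0.09), and 0 of 10 passed the limit, beside 2.47% of all genes higher and 1.18% lower. In ent-2KO they lay between -0.05 for cdc-6 and 0.19 for mcm-4 and for mcm-5, with a sum at 0.10 (0.08 to 0.13), and again 0 of 10 passed, beside 0.845% higher and 1.66% lower. In ent-2KO mcm-4 and mcm-5 stood at percentiles 91.9 and 91.7 of all genes, although their fold was 1.14. All these comparisons used the same ctrl library, so the likeness of their signs carries no separate weight.

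**Figure D2:**
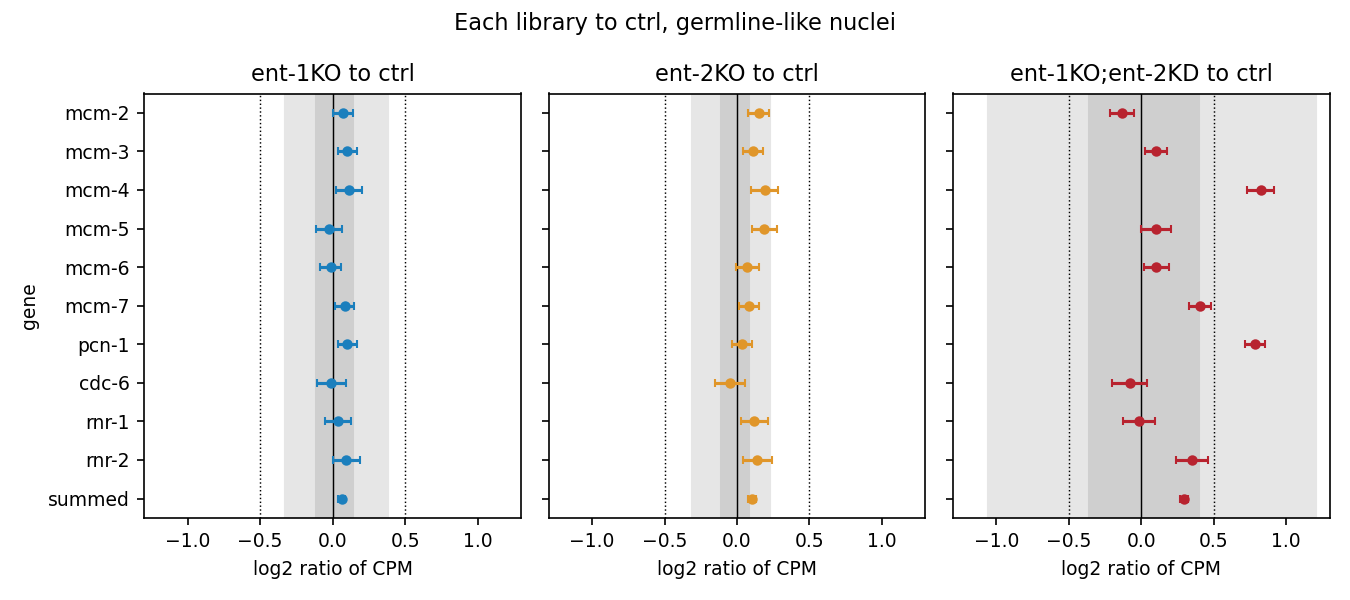
The plot shows log2 ratios of CPM to ctrl in germline-like nuclei for each gene and for their sum, with 1 panel for each library (points with conditional binomial 95% intervals, dotted lines at the fold limit of 0.5). Pale and dark grey bands hold the middle 90% and the middle 50% of all genes past the expression minimum. In the ent-1KO;ent-2KD panel the grey bands are wide, and mcm-4 and pcn-1 are the points past the limit.

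Of 37 other replication and nucleotide supply genes, 34 were matched to the matrices and all of these passed the expression minimum. In each single mutant 0 passed the limit in either direction. All genes gave 2.47% higher and 1.18% lower in ent-1KO, and 0.845% and 1.66% in ent-2KO. In ent-1KO;ent-2KD 5 were higher than ctrl by the limit and 4 lower, with a median of 0.05, beside 20.0% of all genes higher and 18.7% lower. The highest was tyms-1, thymidylate synthase, at 0.74, and the lowest was gmn-1, geminin, an inhibitor of CDT-1, at -0.72. Genes of 1 role did not all lie on the same side. Among genes for work on Okazaki fragments and topology, the flap endonuclease gene crn-1 was at 0.70 and the topoisomerase gene top-1 at -0.61. Among clamp loader genes the values ran from -0.04 for rfc-2 to 0.61 for rfc-3, and among origin and licensing genes from -0.72 for gmn-1 to 0.51 for the kinase gene cdc-7. The polymerase and primase genes ran from -0.56 for div-1 to 0.42 for pri-2. The 7 helicase activation genes all stayed within the limit, between -0.35 for psf-2 and 0.40 for ctf-4.

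Among germline-like nuclei, 12 sub-clusters were found, of which 4 had 15 to 18 of 21 oocyte markers raised and were called oocyte-like. They held 976 of the 6056 nuclei in ctrl, 1456 of 7405 in ent-1KO, 1125 of 6194 in ent-2KO and 542 of 3379 in ent-1KO;ent-2KD. No sub-cluster was named for the progenitor zone, the transition zone or pachytene, since no such list was raised enough in any one. The summed genes were higher in oocyte-like than in the other germline-like nuclei, at 2748 against 1864 CPM in ctrl, 2851 against 1874 in ent-1KO, 3003 against 1950 in ent-2KO and 3548 against 2164 in ent-1KO;ent-2KD. The log2 ratios were 0.56 (0.52 to 0.60), 0.61 (0.58 to 0.64), 0.62 (0.59 to 0.66) and 0.71 (0.67 to 0.75). In ctrl 5 of the 10 genes were higher in oocyte-like nuclei by the limit of 0.5 and 1 was lower, beside 17.9% of 6161 genes higher and 12.7% lower. In ent-1KO the members' counts were 5 and 0, beside 18.3% and 11.9% of all genes, in ent-2KO 5 and 0, beside 18.3% and 12.5%, and in ent-1KO;ent-2KD 7 and 0, beside 19.1% and 14.4%.

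The genes were not raised alike. The small reductase subunit gene rnr-2 had the largest ratio of oocyte-like to other nuclei in ctrl, at 230 against 104.04 CPM, a log2 ratio of 1.14 (0.99 to 1.29), and it was at 1.25, 1.35 and 1.70 in ent-1KO, ent-2KO and ent-1KO;ent-2KD. Its partner rnr-1 was at 0.22 (0.06 to 0.38) in ctrl. Of the MCM genes in ctrl, mcm-3 was at 0.89 (0.78 to 0.99), mcm-2 at 0.87 (0.76 to 0.98), mcm-6 at 0.80 (0.68 to 0.92), mcm-5 at 0.53 (0.38 to 0.67), mcm-4 just under the limit at 0.50 (0.35 to 0.65) and mcm-7 at 0.27 (0.15 to 0.38). The clamp gene pcn-1 was at 0.38 (0.26 to 0.49).

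The licensing gene cdc-6 went the other way. It was lower in oocyte-like nuclei, at 90.8 against 144 CPM in ctrl, 103.9 against 141 in ent-1KO and 99.2 against 136 in ent-2KO, and nearly level at 119.96 against 124.05 in ent-1KO;ent-2KD. The log2 ratios were -0.66 (-0.87 to -0.47), -0.44 (-0.59 to -0.30), -0.46 (-0.63 to -0.29) and -0.05 (-0.26 to 0.16). Across the 44 sub-cluster by library groups of at least 50 nuclei, the log2 level of cdc-6 had a Pearson correlation of 0.04 with the sum of the other members, while for the remaining members the value ran from 0.66 for rnr-2 to 0.91 for mcm-3. These points share libraries and depth, and the value is given as a description.

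Of the other replication genes, 6 of 34 were higher in oocyte-like nuclei of ctrl by the limit and 0 lower, beside 17.9% of all genes higher and 12.7% lower. The highest was tyms-1 at 1.599 and the lowest the polymerase epsilon gene pole-2 at -0.27. Thymidylate synthase makes the thymidine nucleotide from deoxyuridine nucleotide, and tyms-1 was also the highest in ent-1KO and ent-2KO, while in ent-1KO;ent-2KD the highest was the helicase activation gene psf-3 at 1.03.

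**Figure D3:**
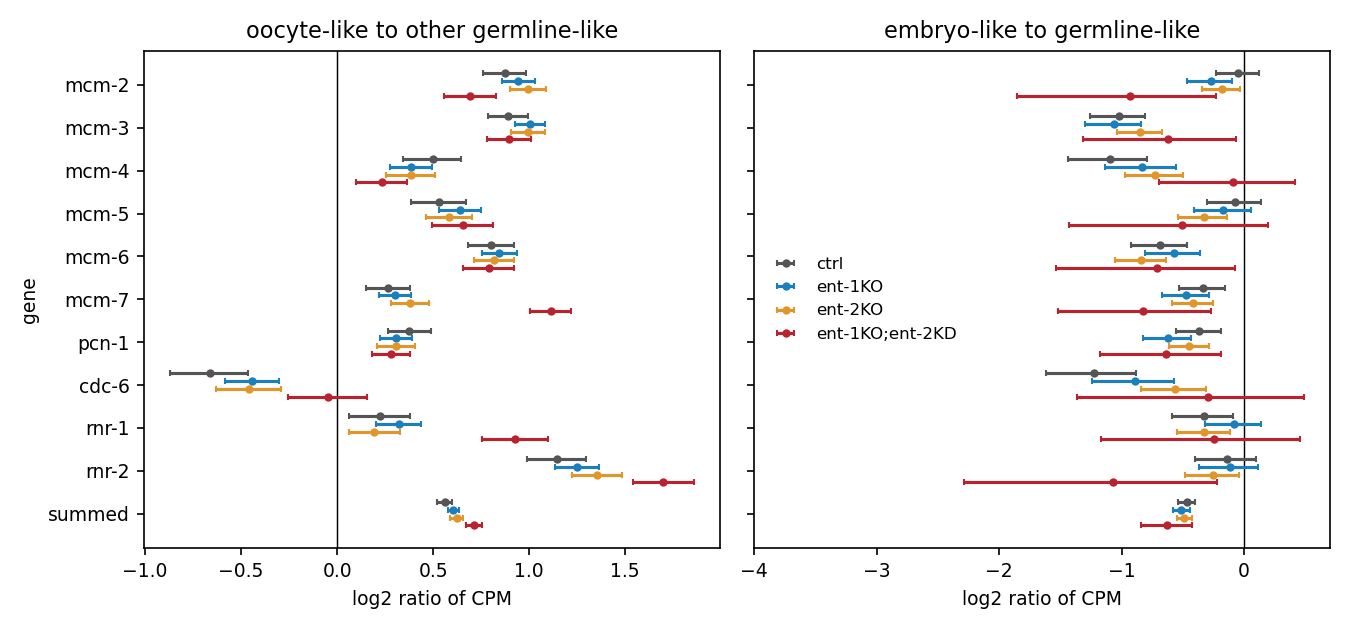
The plot shows log2 ratios of CPM for oocyte-like to other germline-like nuclei (left) and for embryo-like to germline-like nuclei (right), per gene and library, with conditional binomial 95% intervals. On the left rnr-2 is farthest to the right and cdc-6 lies left of 0 in ctrl and the single mutants. On the right most points lie left of 0, and the ent-1KO;ent-2KD intervals are wide because that library held 69 embryo-like nuclei.

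The difference between ent-1KO;ent-2KD and ctrl also depended on the kind of germline nucleus. For mcm-4 and pcn-1 it was present in both. In oocyte-like nuclei mcm-4 was at 197 CPM in ctrl and 306 in ent-1KO;ent-2KD, a log2 ratio of 0.64 (0.47 to 0.80), and in the other germline-like nuclei at 140 and 260.4 CPM, a ratio of 0.90 (0.78 to 1.02). For pcn-1 the ratios were 0.71 (0.59 to 0.83) and 0.80 (0.72 to 0.89). Both genes were higher than in ctrl, with intervals above 0, in 9 of the 10 sub-clusters that held at least 50 nuclei of both libraries.

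For mcm-7 the difference, pooled over sub-clusters, was mostly in oocyte-like nuclei. It was at 314 CPM there in ctrl, 334 in ent-1KO, 350 in ent-2KO and 588 in ent-1KO;ent-2KD, against 261, 271, 269 and 272 CPM in the other germline-like nuclei. The log2 ratio of ent-1KO;ent-2KD to ctrl was thus 0.90 (0.78 to 1.03) in oocyte-like and 0.06 (-0.04 to 0.15) in the other nuclei. It was above ctrl, with its interval above 0, in 6 of 10 sub-clusters, the 4 oocyte-like ones among them, and below it in 1. The gene rnr-2 had the same pooled form, with 0.58 (0.42 to 0.73) in oocyte-like and 0.02 (-0.14 to 0.18) in the other nuclei. For both genes the pooled value near 0 joined sub-clusters of opposite sign. In sub-cluster 3, not oocyte-like, rnr-2 was at 109.3 CPM in ctrl and 184.5 in ent-1KO;ent-2KD, and mcm-7 at 265.4 and 400.5. In sub-cluster 4 both were below ctrl, with rnr-2 at 188.02 CPM in ctrl and 71.6 in ent-1KO;ent-2KD. The summed germline markers were lower there too, at 5500 CPM in ctrl and 2716 in ent-1KO;ent-2KD. Within the 10 sub-clusters rnr-2 had its interval above 0 in 5 and below 0 in 2. In oocyte-like nuclei 4 of 10 genes (mcm-4, mcm-7, pcn-1 and rnr-2) were higher by the limit and 0 lower, beside 23.1% of all genes higher and 19.4% lower. In the other germline-like nuclei 2 of 10 were higher and 0 lower, beside 20.3% higher and 20.7% lower. In the single mutants 0 of 10 passed in either kind of nucleus. The background in ent-1KO was 2.68% higher and 2.06% lower in oocyte-like and 2.08% and 1.53% in the other nuclei, and in ent-2KO 1.69% and 2.65% in oocyte-like and 0.798% and 1.90% in the other nuclei.

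Pooled over sub-clusters, cdc-6 and rnr-1 had opposite signs in the 2 kinds of nucleus. In ent-1KO;ent-2KD to ctrl cdc-6 was at 0.40 (0.15 to 0.66) in oocyte-like and -0.21 (-0.35 to -0.08) in the other nuclei, and rnr-1 at 0.41 (0.23 to 0.60) and -0.29 (-0.44 to -0.15). The libraries differed in their mix of sub-clusters, and within the 10 sub-clusters compared few intervals lay wholly below 0. By value alone cdc-6 was above ctrl in 4 of the 10 and rnr-1 in 5. Of the compared sub-clusters that were not oocyte-like, cdc-6 was above ctrl only in sub-cluster 9 and rnr-1 only in sub-cluster 3. Over all 10, cdc-6 had its interval above 0 in 2, both oocyte-like, and below 0 in 0, with a median of -0.02. The gene rnr-1 had it above 0 in 3, all oocyte-like, and below 0 in 2, at -0.65 (-1.04 to -0.27) in sub-cluster 1 and -1.33 (-2.09 to -0.59) in sub-cluster 4. The helicase gene mcm-2 was below ctrl in both, at -0.27 (-0.40 to -0.13) and -0.09 (-0.20 to 0.02).

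One sub-cluster ran against the rest. In sub-cluster 4, whose nuclei were shallow and led by the ribosomal protein gene rpl-25.1 and the intestinal protease gene asp-14, the summed genes were at 1655 CPM in ctrl and 870 in ent-1KO;ent-2KD. A further sub-cluster, led by T22B7.7 and the neuropeptide genes flp-11 and flp-1, held 443 nuclei of ent-1KO;ent-2KD, 12 of ent-1KO and none of ctrl or ent-2KO, and its summed genes were at 1432 CPM. Without it the summed ratio of ent-1KO;ent-2KD to ctrl in germline-like nuclei was 0.33 (0.31 to 0.36), an alternative chosen after seeing the data.

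**Figure D4:**
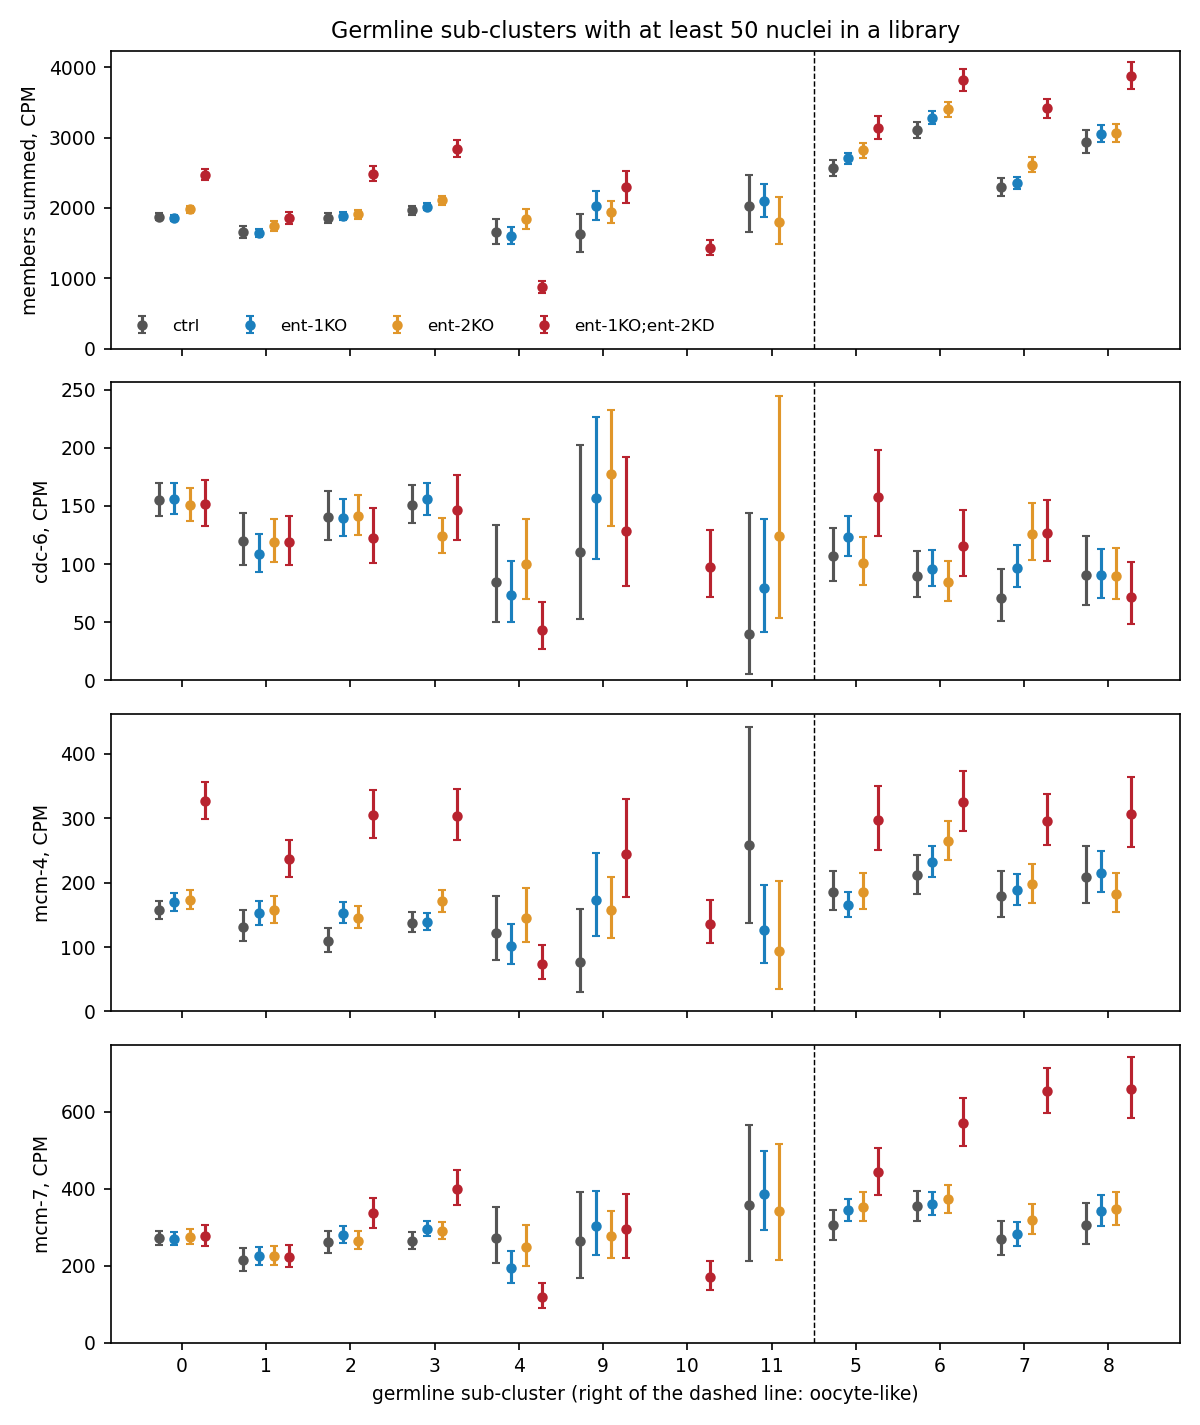
The plot shows levels in CPM of the summed genes, cdc-6, mcm-4 and mcm-7 in each germline sub-cluster, for every library with at least 50 nuclei in it (bars are exact Poisson 95% intervals). Sub-clusters right of the dashed line are oocyte-like. The summed genes are highest there and cdc-6 is not. The ent-1KO;ent-2KD points of mcm-4 are raised on both sides, and those of mcm-7 are raised mainly on the right.

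Stage markers were also read in single nuclei, each thinned at random to 500 UMIs so that depth did not set which nuclei were positive. The genes sygl-1 and lst-1 mark the stem cell pool at the distal end of the gonad, and in ctrl 531 of 6056 nuclei had a UMI of either. Their summed genes were at 2352 CPM against 2069 in the other nuclei, a log2 ratio of 0.18 (0.12 to 0.25). However, 33.7% of these positive nuclei were in oocyte-like sub-clusters, against 16.1% of all germline-like nuclei. With oocyte-like nuclei left out the levels were 1844 and 1866 CPM, a ratio of -0.02 (-0.11 to 0.08). In the other libraries too the positive nuclei were not clearly higher once oocyte-like nuclei were left out. In ent-1KO they were lower, at -0.14 (-0.23 to -0.06). The ratio was -0.08 (-0.17 to 0.00) in ent-2KO and 0.02 (-0.08 to 0.13) in ent-1KO;ent-2KD. A nucleus with such a UMI cannot be read as a stem cell, since in ctrl the level of the stem cell pool markers was highest in oocyte-like sub-clusters 8 and 6, at 698 and 587 CPM.

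Nuclei with a UMI of him-8, zim-1, zim-2 or zim-3, zinc finger genes that pair chromosomes at meiotic entry, had summed levels of 2125 against 2090 CPM in ctrl, and the ratios of the 4 libraries ran from -0.02 to 0.02. Without oocyte-like nuclei they were 0.07 (0.01 to 0.13) in ctrl, -0.01 (-0.07 to 0.04) in ent-1KO, 0.01 (-0.04 to 0.07) in ent-2KO and 0.08 (0.01 to 0.15) in ent-1KO;ent-2KD. Nuclei with a UMI of lin-41, a gene of growing oocytes, had 2483 against 2065 CPM in ctrl, a ratio of 0.27 (0.20 to 0.33), and 51.7% of them were in oocyte-like sub-clusters. Without those the ratio was 0.02 (-0.11 to 0.15).

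Embryo-like nuclei numbered 919 in ctrl, 777 in ent-1KO, 941 in ent-2KO and 69 in ent-1KO;ent-2KD. The summed genes were lower in them than in germline-like nuclei, at 1514 against 2096 CPM in ctrl, a log2 ratio of -0.47 (-0.54 to -0.40), and at 1535 against 2188 CPM in ent-1KO and 1605 against 2252 CPM in ent-2KO. The median of all 7156 genes was itself -0.30 in this comparison in ctrl, and that of the 10 genes was -0.35. By the limit 4 of 10 genes were lower in ctrl and 0 higher, beside 39.2% of all genes lower and 27.9% higher. In ent-1KO 5 were lower and 0 higher, beside 37.8% and 31.6%, and in ent-2KO 4 and 0, beside 35.3% and 28.1%. The 4 in ctrl were cdc-6 at -1.23 (-1.62 to -0.88), mcm-4 at -1.10 (-1.44 to -0.79), mcm-3 at -1.02 (-1.26 to -0.81) and mcm-6 at -0.69 (-0.92 to -0.47). By contrast mcm-2 at -0.05 (-0.23 to 0.12), mcm-5 at -0.07 (-0.30 to 0.14) and rnr-2 at -0.14 (-0.40 to 0.10) had intervals that held 0. The subunits of the helicase ring thus ran from -0.05 to -1.10 between embryo-like and germline-like nuclei of the same library.

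Between libraries, the embryo-like nuclei of ent-2KO had cdc-6 at 84.7 CPM against 55.2 in ctrl, a log2 ratio of 0.61 (0.18 to 1.07), and mcm-4 at 106.1 against 71.9 CPM, a ratio of 0.56 (0.17 to 0.96), from 66 and 86 UMIs in ctrl. These were 2 of 10 genes past the limit, beside 5.04% of 7143 genes higher and 6.03% lower. In ent-1KO 0 of 10 passed, beside 9.38% higher and 5.57% lower, with cdc-6 at 0.33 (-0.16 to 0.83) and mcm-4 at 0.38 (-0.05 to 0.81). In the 69 embryo-like nuclei of ent-1KO;ent-2KD the counts were small, and mcm-4, at 253 CPM from 29 UMIs, was at 1.83 (1.16 to 2.44) to ctrl, while mcm-2, from 14 UMIs, was at -1.01 (-1.95 to -0.29).

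In the named somatic classes the 10 genes were at a fraction of their germline level, and the genes of the germline marker list were at a like fraction. In body wall muscle-like nuclei of ctrl the summed genes were at 19.01% of the level in germline-like nuclei, and the median of 24 germline markers was 17.9%. In hypodermis-like nuclei the values were 41.5% and 41.8%, in intestine-like nuclei 42.5% and 38.1%, in neuron-like nuclei 44.1% and 41.7%, and in nuclei like gonadal sheath and spermatheca 28.1% and 25.01%. In ent-1KO;ent-2KD, where germline-like nuclei gave a smaller share of the library, both were lower, at 11.6% and 12.6% in body wall muscle-like, 12.5% and 14.1% in hypodermis-like, 22.5% and 23.6% in intestine-like and 28.5% and 28.7% in neuron-like nuclei. Sperm-like nuclei, which are germ cells, and the unnamed cluster 2 were compared beside the somatic classes. There rnr-2 reached 131% of its germline level in sperm-like nuclei of ent-1KO and 150% in cluster 2 of ctrl. Over 10 genes, 8 classes or clusters and 4 libraries, 13 of 320 levels exceeded the highest germline marker of the same nuclei, 11 of them of rnr-2 and 2 of rnr-1. They were rnr-2 in body wall muscle-like and pharyngeal muscle-like nuclei of both single mutants, in intestine-like nuclei of ent-2KO, in neuron-like nuclei of ent-1KO, in sperm-like nuclei of all libraries but ent-1KO;ent-2KD and in cluster 2 of ctrl and ent-1KO, and rnr-1 in intestine-like nuclei of ent-1KO and sperm-like nuclei of ctrl. No interval was set on these percentages, and some were near ties. In intestine-like nuclei rnr-2 of ent-2KO was at 60.8% against 60.5% for the highest marker, and rnr-1 of ent-1KO at 54.8% against 54.2%. Others were farther apart, such as rnr-2 in cluster 2 of ctrl, at 150% against 119.3%. The part of germline RNA carried into somatic droplets was not tested, and for the MCM genes, pcn-1 and cdc-6 no level in these classes or clusters lay above the range of the germline markers.

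The share of nuclei with a UMI gave the same order. After thinning to 500 UMIs, 62.1% of germline-like nuclei of ctrl had a UMI of any of the 10 genes, against 49.6% of embryo-like, 30.1% of hypodermis-like and 20.0% of body wall muscle-like nuclei. From all UMIs they were 88.5%, 72.7%, 67.6% and 47.1%, and the median nucleus of these classes had 1536, 959, 2380 and 1859 UMIs. For pcn-1 13.2% of germline-like nuclei of ctrl (12.3% to 14.04%) and 18.2% of those of ent-1KO;ent-2KD (16.9% to 19.5%) had a UMI after thinning, against 4.56% and 2.60% of hypodermis-like nuclei. For cdc-6 the germline-like shares were 6.41% and 5.09%.

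**Figure D5:**
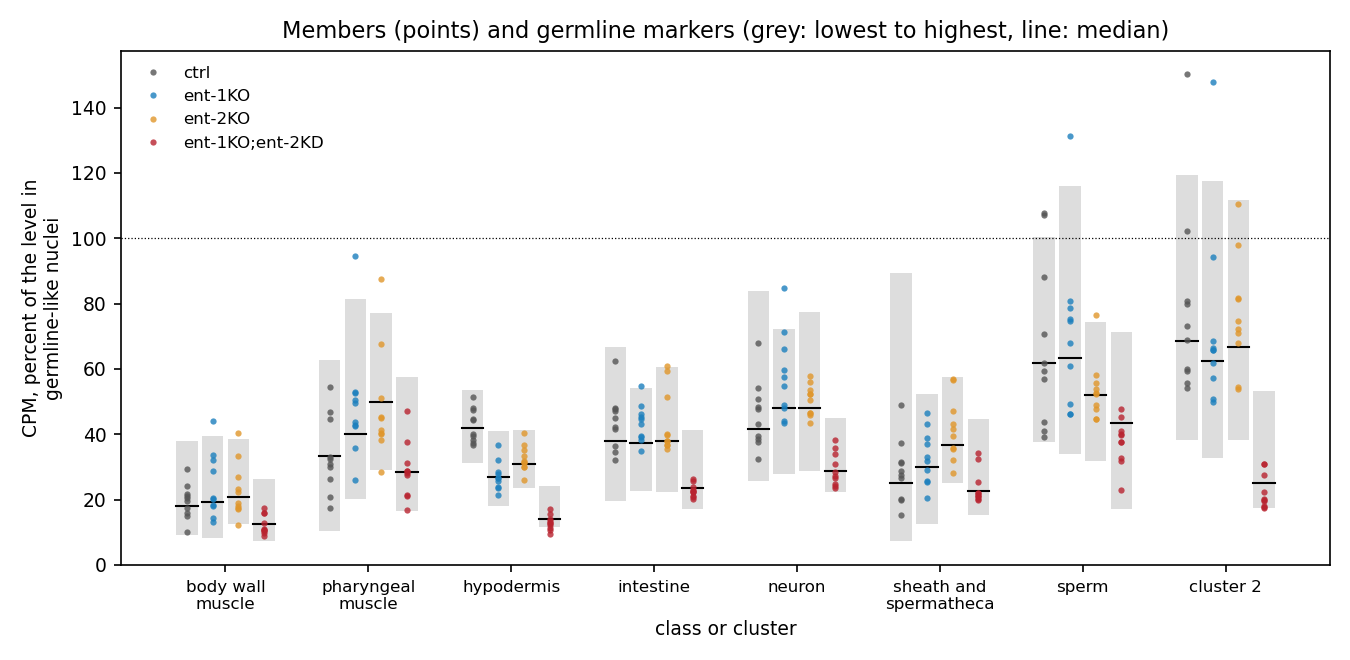
The plot shows levels of the 10 genes (1 point per gene, coloured by library) in other classes as a percentage of their CPM in germline-like nuclei of the same library. Grey bars run from the lowest to the highest of 24 germline markers and black lines mark their median. In most classes the points lie within the grey bars, and in cluster 2 the point above the bar in ctrl and ent-1KO is rnr-2.

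In ctrl and ent-1KO rnr-2 was highest against the markers in cluster 2. This cluster was rich in ribosomal protein transcripts and led by intestinal protease genes such as asp-14 and asp-6, so it was left without a tissue name. In it rnr-2 was at 206 CPM in ctrl, 216 in ent-1KO, 167 in ent-2KO and 54.1 in ent-1KO;ent-2KD, against 137, 146, 151 and 175 CPM in germline-like nuclei. In ctrl and ent-1KO these values were 150.2% and 148% of the germline level, above the highest of 24 germline markers at 119.3% and 117.6%. In ent-2KO rnr-2 was at 110.4% and in ent-1KO;ent-2KD at 30.97%, within the range of the markers. The large subunit gene rnr-1 was at 155, 147, 162 and 46.3 CPM in the same cluster.

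Another unnamed cluster, cluster 9, was led by Y46H3C.7, Y51H7C.42 and Y9D1A.2, which were also among the leading genes of oocyte-like sub-cluster 7. The summed genes were at 1408 CPM there in ctrl, 1612 in ent-1KO, 1534 in ent-2KO and 2412 in ent-1KO;ent-2KD, a log2 ratio to ctrl of 0.78 (0.69 to 0.87) for the last. As in oocyte-like nuclei, mcm-7 was high in ent-1KO;ent-2KD, at 203, 245, 208 and 449 CPM in the same order, and so was rnr-2, at 108, 118.9, 146 and 275 CPM. Here mcm-6 was high too, at 118, 137, 138 and 308 CPM, a ratio of 1.38 (1.09 to 1.69), although it was at 0.07 (-0.07 to 0.21) in oocyte-like nuclei. That pooled value joined sub-clusters of opposite sign. In sub-cluster 7 mcm-6 was at 275 CPM in ctrl and 348 in ent-1KO;ent-2KD, and in sub-cluster 8 at 386 and 411. In sub-clusters 5 and 6 it was below ctrl. The gene cdc-6 was level, at 99.5, 89.5, 101 and 86.1 CPM, and mcm-2 was lower than in ctrl, at 208, 234.6, 215 and 164 CPM. Cluster 9 held 4.64% of the UMIs of the 10 genes in ctrl and 10.6% in ent-1KO;ent-2KD, beside 71.4% and 62.3% in germline-like nuclei.

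Within germline-like nuclei of ctrl the genes were seen together about as often as the product of their shares gives, and in ent-1KO;ent-2KD more often. Over the 45 pairs of genes in nuclei thinned to 500 UMIs, the number of nuclei with both genes was 1.03 times the product of the shares in ctrl, 1.08 times in ent-1KO, 1.05 times in ent-2KO and 1.21 times in ent-1KO;ent-2KD. In ctrl 27 pairs and in ent-1KO;ent-2KD 38 pairs were above 1. No such values are given for pairs of other genes, so these cannot show whether the excess is particular to these genes. In ent-1KO;ent-2KD the summed genes ran from 870 CPM in sub-cluster 4 to 3876 in sub-cluster 8. In ctrl they ran from 1627.5 CPM in sub-cluster 9 to 3106 in sub-cluster 6. What part this mix of nuclei had in the pair counts was not tested. The highest pair in ctrl was mcm-3 with mcm-6, at 96 nuclei against 69.3 from the product, and in ent-1KO;ent-2KD mcm-7 with rnr-2, at 50 nuclei against 29.1. Both are pairs of genes that were higher in oocyte-like nuclei of those libraries.

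Over 55 class or cluster by library groups of at least 50 nuclei, the genes whose log2 levels were most like the summed members among 12217 genes were dnj-11, klp-19, rsa-2, F59A6.5 and W05F2.3, each with a Pearson correlation of 0.95. Over 44 germline sub-cluster by library groups they were C36B1.11, pigv-1, daf-18, wdr-5.3 and Y51H7C.3, from 0.91 to 0.94 among 6983 genes. The median for the other replication genes was 0.86 over classes and 0.59 over germline sub-clusters, against 0.09 and 0.22 for all genes. The groups share 4 libraries and their depths, and genes of 1 tissue vary together, so these values are a description.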

How the data were processed

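Nuclei of 4 libraries were profiled with the 10x Genomics 3′ assay. The deposited matrices hold whole-number UMI counts per feature and barcode, which the authors made with Cell Ranger (6.0 in the submitters' processing notes, 6.1.2 in the matrix headers) against a WormBase annotation of release WS282. Whether intronic reads were counted is not given in the sources used here. The matrices held barcodes of at least 500 UMIs, with 21009254 to 32714922 UMIs per library, and the depth of a gene's counts sets the printed intervals.

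Doublets were scored with Scrublet (scanpy 1.11.5), and in each library the highest scores were removed at 0.8% per 1000 nuclei. Libraries were joined with Seurat 5.3.0 (R 4.3.3) by canonical correlation, with 2000 variable genes that left out the 10 genes and the other replication genes, 30 dimensions and a resolution of 0.8. Clusters were named where markers of 1 list had a median raise of at least 0.5 (log2) and at least 3 were raised, and were left unnamed where their leading genes or ribosomal share went against the name. Germline-like nuclei were clustered again in the same way.

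UMIs were summed per class and library and divided by all UMIs of that class to give CPM, with exact Poisson intervals. Log2 ratios had 0.5 UMIs added to each count, with exact conditional binomial (Clopper-Pearson) intervals at 95%. A gene entered the background of a comparison at 20 CPM in either group and 50 UMIs over both. No test between conditions was run, since each had 1 library. The computation of ratios was tested on simulated data. Gene positions came from the Ensembl annotation of WBcel235.

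All 10 members are named, and of the other genes the highest and lowest of each list, with marker genes used as such. The members and the lists were chosen with earlier results of these data known. Alternatives covered doublets, integration, resolution, scaling, free RNA, depth, shared barcodes and the mix of sub-clusters. Free RNA was taken as the profile of all kept nuclei of a library, scaled by the level of somatic markers in germline-like nuclei.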

Additional observations from a re-analysis of the deposited data

Results flagged for a closer look

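Between ent-1KO;ent-2KD and ctrl, 2 of the 10 genes had ratios of opposite sign in the kinds of germline nucleus, pooled over sub-clusters. On the log2 scale cdc-6 was at 0.40 in oocyte-like and -0.21 in the other germline-like nuclei, and rnr-1 was at 0.41 and -0.29. Within 10 sub-clusters the interval lay below 0 in 0 for cdc-6 and in 2 for rnr-1, and the libraries differed in their mix of sub-clusters. By value alone, in the compared sub-clusters that were not oocyte-like, cdc-6 was above ctrl only in sub-cluster 9 and rnr-1 only in sub-cluster 3. The summed genes were above ctrl in germline-like nuclei and below it in several somatic classes and in sperm-like nuclei. In ent-1KO;ent-2KD they were at 0.29 in germline-like, -0.43 in body wall muscle-like, -1.43 in hypodermis-like, -0.62 in intestine-like, -0.34 in neuron-like and -0.58 in sperm-like nuclei. In ent-1KO they were at 0.062 in germline-like and -0.58 in hypodermis-like nuclei, and in ent-2KO at 0.10 and -0.28. With 1 library per condition none of these differences was tested. The germline marker list fell beside the summed genes in the somatic classes of ent-1KO;ent-2KD, in hypodermis-like nuclei from 41.0% of its germline level in ctrl to 14.4%, and its part in these values was not tested.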

How the results depend on the processing

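No paired analysis was possible because each condition had 1 library. Counting intervals do not cover the spread between worms, cultures or libraries, which 1 library per condition cannot give. Depth limited the pharyngeal muscle-like nuclei of ctrl, with 4 to 19 UMIs per gene, and the embryo-like nuclei of ent-1KO;ent-2KD, with 9 to 36. Of 56 alternative values for the summed genes, 39 stayed within the counting interval of the reported value, 16 moved outside it with the same sign and 1 changed sign.

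For the summed genes in germline-like nuclei of ent-1KO;ent-2KD, at 0.29 to ctrl on the log2 scale, the value was 0.72 without integration, 0.46 with free RNA subtracted, 0.26 at a resolution of 1.6, 0.26 with sub-clusters weighted equally and 0.074 with each nucleus thinned to 500 UMIs. Under alternatives chosen after seeing the data it was 0.32 with cluster 9 counted as germline, 0.33 without sub-cluster 10 and 0.23 with ent-1KO as the reference. The ent-1KO value of 0.06 was 0.023 after thinning, and the ent-2KO value of 0.10 was 0.078 without integration. Embryo-like to germline-like nuclei, at -0.47 in ctrl, were at -0.38 with doublets kept, -0.17 when scaled by the median of ratios, which shifts by the median of all genes, and -0.74 with free RNA subtracted. Oocyte-like to other nuclei, at 0.56 in ctrl, were at 0.81 with free RNA subtracted and 0.64 after thinning. For sygl-1 or lst-1, at 0.18 in ctrl, the value was 0.26 with positives called from all UMIs and -0.016 without oocyte-like nuclei. Among single genes, mcm-2 in ent-1KO;ent-2KD, at -0.13, was at 0.42 without integration and 0.038 with free RNA subtracted, mcm-3, at 0.10, was at 0.72 without integration, -0.030 after thinning and -0.0022 with ent-1KO as the reference, and mcm-6, at 0.10, was at 0.52 without integration and -0.084 after thinning. The ranges were -0.21 to 0.54 for mcm-5, 0.10 to 0.89 for mcm-7, -0.34 to 0.05 for cdc-6, -0.25 to 0.49 for rnr-1 and 0.11 to 1.10 for rnr-2. In ent-1KO pcn-1, at 0.10, was at -0.011 after thinning. Except where the construction shows it, the cause was not tested.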
